A study of Mus musculus with 45 samples.

Results

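The transcripts described here encode the histone methyltransferases EHMT1 and EHMT2 and the zinc finger proteins WIZ, ZFP644 and ZFP462. They were chosen by gene symbol (Ehmt1, Ehmt2, Wiz, Zfp644, Zfp462), and in the table without symbols by Ensembl identifier, as 5 genes of the 55401 counted in each of 4 mouse RNA-seq experiments. All 5 had a value above 0 in every group mean and in every single library. The rule that picks them uses names only and no threshold on a value.

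EHMT1 (also called GLP) and EHMT2 (also called G9a) bind each other through their catalytic SET domains and place 1 or more methyl groups on lysine 9 of histone H3, a mark of silent chromatin within gene-rich regions. WIZ and ZFP644 are multi-zinc-finger partners that bind the enzyme pair and connect it to DNA, and ZFP462 is a zinc finger protein that brings the pair to a subset of its sites. In mouse embryonic stem cells (mESCs) this complex is known for restraining genes and retroviral elements of the 2-cell embryo, which a few cells in each culture, the 2-cell-like cells (2CLCs), express spontaneously.

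The time course, washout and sorting experiments used EHMT2-dTAG mESCs of the hybrid KH2 line, in which both copies of Ehmt2 carry a degron, HA tags and an mCherry reporter at the stop codon. The small molecule dTAG-13 destroys the tagged protein and not its transcript, and DMSO is the solvent control. In the time course, 3 clones were given DMSO or dTAG-13 for 24 h or 7 d, and in the washout experiment DMSO or dTAG-13 for 15 d, or dTAG-13 for 7 d followed by 8 d without it. In the sorting experiment, EHMT2-dTAG cells with a MERVL-GFP reporter, which marks 2CLCs, were given DMSO or dTAG-13 for 72 h and sorted into GFP-negative mESCs and GFP-positive 2CLCs, so the tag and both reporters were present in controls as well. In the Dppa4 experiment, untagged J1 wild-type (WT) mESCs and CRISPR-Cas9 Dppa4 knockout (KO) mESCs, described as clonal lines, received DMSO or UNC0638, an inhibitor of the catalytic sites of EHMT1 and EHMT2, for 48 h. The cells were grown on fibroblast feeders. Every group held 3 libraries, 45 in all. The 3 degron experiments were deposited as 1 mean per group, so their values are the authors' means, with no SD and no test, and a ratio past 2-fold is the call used for them.

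The Dppa4 libraries held 8399885 to 12710949 reads in genes. Dppa4 itself was at 700.4 to 920.5 normalised counts in the 6 WT libraries and had 0 reads in all 6 KO libraries. All 7 pluripotency markers were detected in every group. Of 8 markers of the 2C state, all 8 were over 2-fold higher in GFP-positive than in GFP-negative cells of either treatment, and 0 of 8 had a read in the untreated Dppa4 KO libraries. Of 8 fibroblast markers, which feeder cells would bring in, 7 or 8 were detected in each group, and their summed level ran from 192.5 CPM (counts scaled to the total over genes) after washout to 1137 CPM at 24 h of DMSO. Fn1, the fibronectin gene, made up most of this sum in every group, at 3250 normalised counts after washout and 14805 at 24 h of DMSO. The sums of this list, here and below, thus mainly follow Fn1. The 5 primitive endoderm markers summed to between 4.50 and 27.8 CPM over all groups and libraries. KO UNC0638 replicate 3 stood apart, with a median distance of 0.33 log2 units from its group mean over all genes tested against 0.16 to 0.26 in the other 11 libraries.

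Ehmt2 is the gene edited in the degron lines, so the site of the edit is shown. The guide RNA used to place the tag, taken from the study's list of oligonucleotides, is given 5′ to 3′ with the complement of the stop codon in capitals. The target with its PAM is given on the transcript strand, with the stop codon in capitals.

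Ehmt2 guide: aagagtccTCAggtgttgat

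Ehmt2 target and PAM: cccatcaacaccTGAggactctt

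The guide matched chr17:34913809-34913828 on the minus strand of GRCm38, next to a GGG PAM, in the last coding exon of Ehmt2 and the first bases of its 3′ UTR. The stop codon lay at chr17:34913818-34913820, at guide positions 9 to 11 from the 5′ end. The match was found in 5 annotated Ehmt2 transcripts with a stop codon and in 0 of the other 4 genes. Since the tag took the place of the stop codon, the coding exons of Ehmt2 were kept whole ahead of it.

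The genes lie on 4 chromosomes and differ in exon structure. In GRCm38, Ehmt1 spans chr2:24789928-24919614, Ehmt2 chr17:34898469-34914052, Wiz chr17:32354055-32389439, Zfp644 chr5:106616739-106697287 and Zfp462 chr4:54945048-55083563. Ehmt2 had 5489 bases of exon in 24 blocks, the longest holding 13.1% of them. Zfp462 had 10702 bases in 14 blocks, and a single block held 52.3% of them. The authors' alignment did not allow introns, so reads across splice junctions were lost. The part of this loss in level differences between genes was not tested. In the annotation used here, Wiz also shared 2099 bases of exon with genes on the opposite strand, most of them with Gm26858. That annotation is an older release than the authors', and no gene named Gm26858 was among the deposited counts. Counting ran at the counter's default parameters, with no strand option named in the methods. The part of this overlap in the Wiz counts was not tested.

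Levels can be set against each other only per length, so normalised counts were divided by kilobases of exon. In DMSO at 24 h, Zfp462 stood highest at 254.3 per kb and Wiz followed at 178.6. Ehmt2 at 112.2, Ehmt1 at 106.7 and Zfp644 at 81.4 per kb came after them. The zinc finger recruiter thus had the highest mean count per length. With no spread at hand, neither its place nor the order of the 2 enzymes could be tested. The part of lost junction reads in this order was not tested either. Zfp462 was the first of the 5 in all 7 groups of the time course and washout tables. Among sorted cells Zfp462 was first in DMSO GFP-negative cells and dTAG 2CLCs, and Wiz in the other sorted groups. In J1 WT cells with DMSO the order was another. There Ehmt2 was at 95.8 ± 17.2 per kb (SD, n = 3), above Zfp462 at 67.4 ± 7.06 (SD, n = 3), and their libraries did not overlap. Zfp462, Ehmt1 at 61.6 ± 12.2 and Wiz at 59.4 ± 0.790 per kb (SD, n = 3 each) overlapped in their libraries. Zfp644 was lowest at 13.6 ± 3.95 per kb (SD, n = 3), below every library of the other 4 genes. With UNC0638 in WT cells Zfp462 was first at 101.7 ± 7.76 per kb, above Ehmt2 at 72.3 ± 12.8 (SD, n = 3 each), without overlap. In both KO groups Ehmt2 had the highest mean but overlapped the next gene. Cell line, library preparation and experiment changed together here and cannot be told apart.

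The ratio of Ehmt2 to Ehmt1 per kb of exon, in which scaling between tables cancels, was 0.947 to 1.05 in the 4 time-course groups. The loss of junction reads does not cancel, and reads were longer in the sorted and Dppa4 experiments. Their part in differences between experiments was not tested. It was 0.489 to 0.599 in the washout groups and 0.190 to 0.325 in the sorted groups. The 12 single J1 libraries ran from 0.942 to 2.42. Within the J1 libraries, replicate 3 of WT DMSO, KO DMSO and KO UNC0638 stood at 2.42, 2.03 and 2.39, above the other 9 libraries, which lay between 0.942 and 1.44. Ehmt2 was thus near parity with Ehmt1 in the time course, below it in the washout groups and lowest in sorted cells, whatever the treatment. The sorted libraries also differed in reporter line, low-input preparation and read length, which cannot be told apart.

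**Figure D1:**
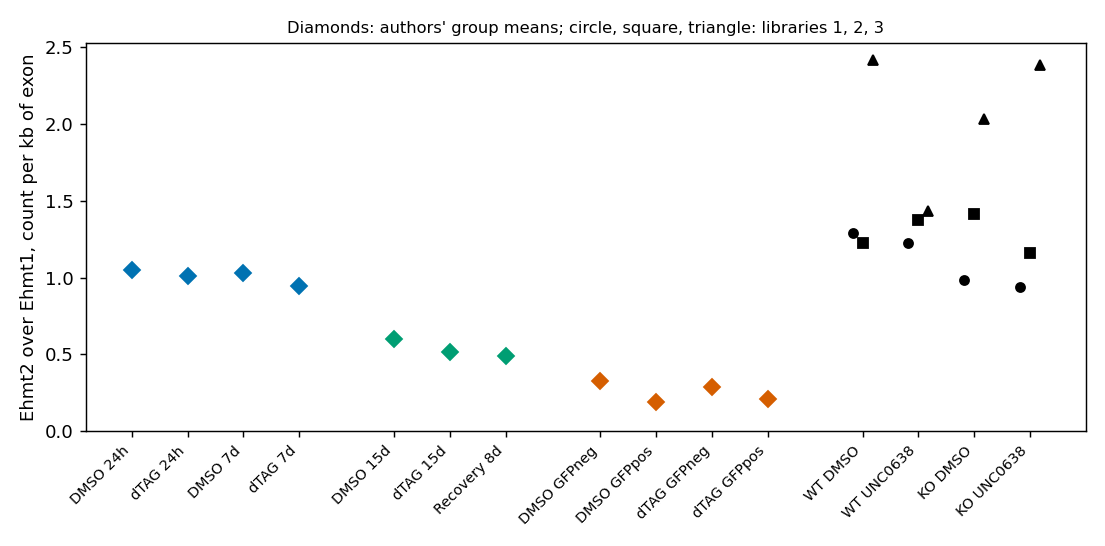
Ratio of Ehmt2 to Ehmt1 in counts per kb of exon (y axis, no unit) in 11 group means of the degron experiments (diamonds, coloured by experiment) and in the 12 J1 libraries (circle, square and triangle for replicates 1, 2 and 3). The sorted cells lie lowest, between 0.190 and 0.325, and 3 of the 4 triangles lie above 2.

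Degrading EHMT2 protein left the transcripts of both enzymes close to their control levels in the time course. Ehmt2, the gene whose protein was removed, was at 615.6 normalised counts in DMSO and 608.6 in dTAG at 24 h. At 7 d it was at 621.5 in DMSO and 582.5 in dTAG, a ratio of 0.937. Ehmt1, its catalytic partner, ran from 865.6 to 909.6 over the 4 groups, a highest-to-lowest ratio of 1.05.

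The zinc finger genes had wider ratios than the enzymes at 7 d. Zfp462 was at 2721 in DMSO and 3104 in dTAG at 24 h, and at 2596 in DMSO and 3646 in dTAG at 7 d, ratios of 1.14 and 1.40. Wiz was at 1651 and 1595 at 24 h, and at 1729 and 1355 at 7 d, where the dTAG mean was 0.784 of the DMSO mean. Zfp644 was higher in dTAG at both times, at 1326 against 1140 and at 1479 against 1281. Its DMSO mean at 7 d was itself 1.12 times that at 24 h. None of the 5 passed 2-fold at either time, where 4.74% of 17970 genes tested at 24 h and 8.39% of 17993 at 7 d did. As a scale for these ratios, 26.0% of all genes had a ratio at 7 d as far from 1 as that of Zfp462, and 38.8% as far as that of Wiz. Between the 2 DMSO groups, in which 1.89% of 17806 genes passed 2-fold, 0 of the 5 did.

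In the same cultures the 8 2C markers summed to 11.7 and 131.4 CPM in DMSO and dTAG at 24 h, and to 19.1 and 399.4 at 7 d, all 8 past 2-fold at both times. Fibroblast markers summed to 1137 and 957.2 CPM at 24 h and to 774.3 and 800.4 at 7 d, sums made up mostly of Fn1, the fibronectin gene, at 9794 and 9846 normalised counts at 7 d. Of the markers compared, 1 of 7 was past 2-fold lower in dTAG at 24 h (median log2 ratio -0.31) and 1 of 6 past 2-fold higher at 7 d (median 0.55). Primitive endoderm markers summed to 7.79 and 13.4 CPM at 24 h and to 10.6 and 9.40 at 7 d. In such bulk samples, fewer cells of a type and less RNA per cell cannot be told apart. The part of these cells in the ratios of the 5 genes was not tested.

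**Figure D2:**
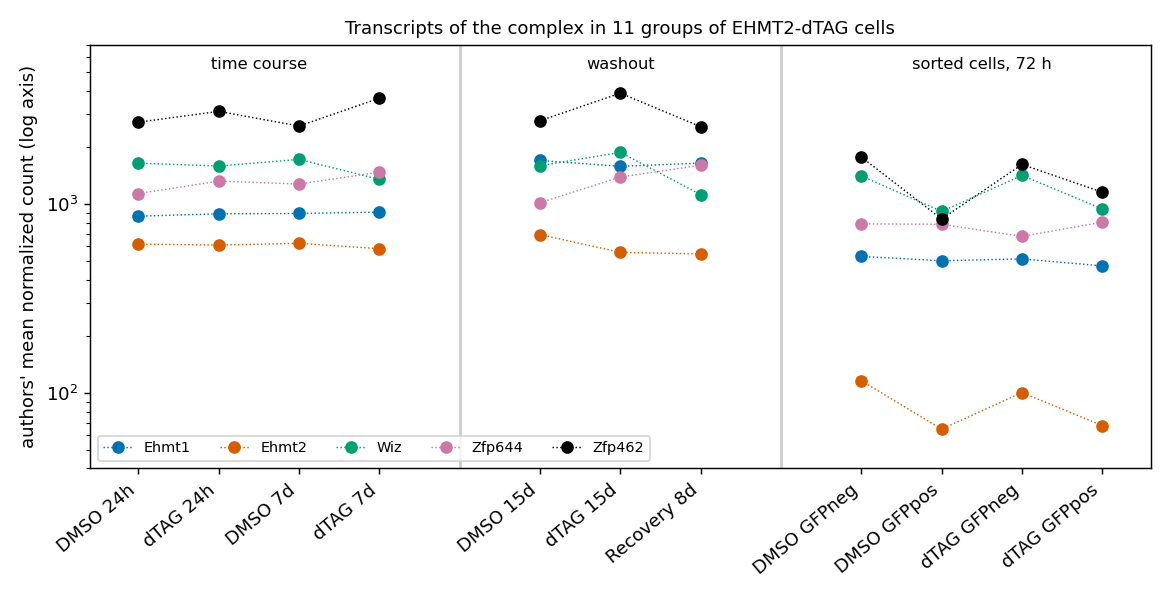
The authors' mean normalised count (log axis) of each gene in the 11 groups of EHMT2-dTAG cells, each experiment normalised separately; dotted lines only join the points of a gene. Ehmt1 is nearly level within each experiment, whereas Zfp462 is highest in dTAG at 7 d in the time course and at 15 d in the washout experiment, and lowest in 2CLCs among sorted cells.

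At 15 d the same pair of genes stood highest relative to DMSO. Zfp462 was at 2771 in DMSO and 3874 in dTAG, 1.40 times as high, and 16.4% of genes had as large a ratio. Zfp644 was at 1020 in DMSO and 1395 in dTAG, 1.37 times as high. Ehmt2 was at 691.0 in DMSO and 556.9 in dTAG, a ratio of 0.806, and Ehmt1 at 1706 and 1589, a ratio of 0.931. Wiz was at 1601 and 1883, so its dTAG mean lay above its DMSO mean at 15 d and below it at 7 d. None of the 5 passed 2-fold, as 5.12% of 17377 genes did.

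After washout the 5 transcripts did not share a course. Zfp462 was at 2574, against 2771 in DMSO and 3874 in continued dTAG, ratios of 0.929 and 0.665. Wiz was at 1125, which was 0.703 of its DMSO level and 0.598 of its dTAG level. Zfp644 was at 1611, 1.58 times its DMSO level, and 7.70% of genes had as large a ratio. Zfp462 thus lay near its DMSO level, Wiz lay below both groups and Zfp644 above both. Ehmt2 at 546.1 lay next to its continued-dTAG level of 556.9, and Ehmt1 at 1653 between the other two groups. None passed 2-fold against DMSO, as 2.39% of 17021 genes did, or against continued dTAG, as 7.13% of 17411 genes did. Both washout ratios share the recovery group and are not separate evidence.

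Fibroblast markers moved with the washout: their sum was 360.0 CPM in DMSO, 487.2 in dTAG and 192.5 after recovery, and all 6 that passed the minimum level were over 2-fold lower after recovery than in dTAG. Lum, a fibroblast proteoglycan gene, was listed at 0 after recovery, and Dcn, another, was at 5.08 to 6.69 normalised counts in the 3 groups. The 2C markers summed to 22.1, 533.4 and 35.3 CPM. Primitive endoderm markers summed to 6.56, 13.6 and 7.81 CPM, with 2 of 4 compared past 2-fold higher in dTAG than in DMSO and 3 of 4 past 2-fold lower after recovery than in dTAG. The part of any of these lists in the ratios of Wiz, Zfp644 and Zfp462 was not tested.

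Between sorted cell states under DMSO, Zfp462 and Ehmt2 had wider ratios than in the time course or washout. Zfp462 was at 1778 normalised counts in GFP-negative cells and 836.3 in 2CLCs under DMSO, 2.12-fold lower in 2CLCs. It was the 1 of the 5 to pass 2-fold, where 23.7% of 17277 genes did in either direction and 9.03% in the lower direction. Ehmt2 was at 116.5 in GFP-negative cells and 64.6 in 2CLCs, 1.79-fold lower, and Wiz at 1414 and 917.0, 1.54-fold lower. Ehmt1 was at 530.0 and 502.7 and Zfp644 at 788.1 and 783.9, ratios of 0.949 and 0.995. The 2CLCs thus had lower means of Ehmt2, Wiz and Zfp462, whereas Ehmt1 and Zfp644 lay near a ratio of 1. The pluripotency markers summed to 5593 CPM in GFP-negative cells and 2798 CPM in 2CLCs under DMSO, and to 4841 and 2419 CPM under dTAG. Under each, 4 of 7 were past 2-fold lower in 2CLCs. Nanog went the other way, at 6350 and 8924 normalised counts under DMSO and 7785 and 10184 under dTAG. The part of these markers in the ratios of the 5 genes was not tested. Shares of all genes put these ratios in scale, since 21.4% had one as large as that of Zfp462, 29.5% as large as that of Ehmt2 and 40.1% as large as that of Wiz.

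With EHMT2 degraded, the 2 cell states lay closer for Zfp462. Under dTAG it was at 1626 in GFP-negative cells and 1159 in 2CLCs, 1.40-fold lower, so that 0 of the 5 genes passed 2-fold where 21.1% of 17277 genes did. Ehmt2 was at 100.9 and 67.5, 1.49-fold lower in 2CLCs, and Wiz at 1422 and 945.9, a ratio of 0.665. Ehmt1 was at 514.3 and 472.1, and Zfp644 at 676.5 and 804.2, 1.19 times as high in 2CLCs. Ehmt1, Ehmt2, Wiz and Zfp462 thus had lower means in 2CLCs than in GFP-negative cells under either treatment, with Ehmt1 the nearest to 1 of these at 0.949 and 0.918. Whether the Zfp462 ratio differed between DMSO and dTAG could not be tested on group means.

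Set the other way, dTAG against DMSO within a state, the ratios were near 1 except for Zfp462 in 2CLCs. In 2CLCs Zfp462 was 1.39 times as high in dTAG, whereas in GFP-negative cells it was at 0.915 of DMSO. The other 4 genes ranged from 0.859 (Zfp644) to 1.01 (Wiz) in GFP-negative cells and from 0.939 (Ehmt1) to 1.04 (Ehmt2) in 2CLCs. None passed 2-fold, as 6.86% of 16484 genes did in GFP-negative cells and 7.35% of 17523 in 2CLCs. All 4 sorted comparisons use the same 4 means in turn. Fibroblast markers summed to 719.4 and 403.8 CPM in GFP-negative cells and 2CLCs under DMSO and to 891.5 and 568.7 under dTAG. Fn1 made up most of these sums, at 5956 and 3017 normalised counts under DMSO, while the median log2 ratio of the 6 markers compared was 0.86 in 2CLCs against GFP-negative cells under DMSO and 1.19 under dTAG, with 2 and 4 past 2-fold higher and 0 lower. In dTAG against DMSO, 4 of 6 were past 2-fold higher in each state. Primitive endoderm markers summed to 14.8 and 27.5 CPM in GFP-negative cells and 2CLCs under DMSO and to 12.9 and 27.8 under dTAG. The part of these lists was not tested.

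**Figure D3:**
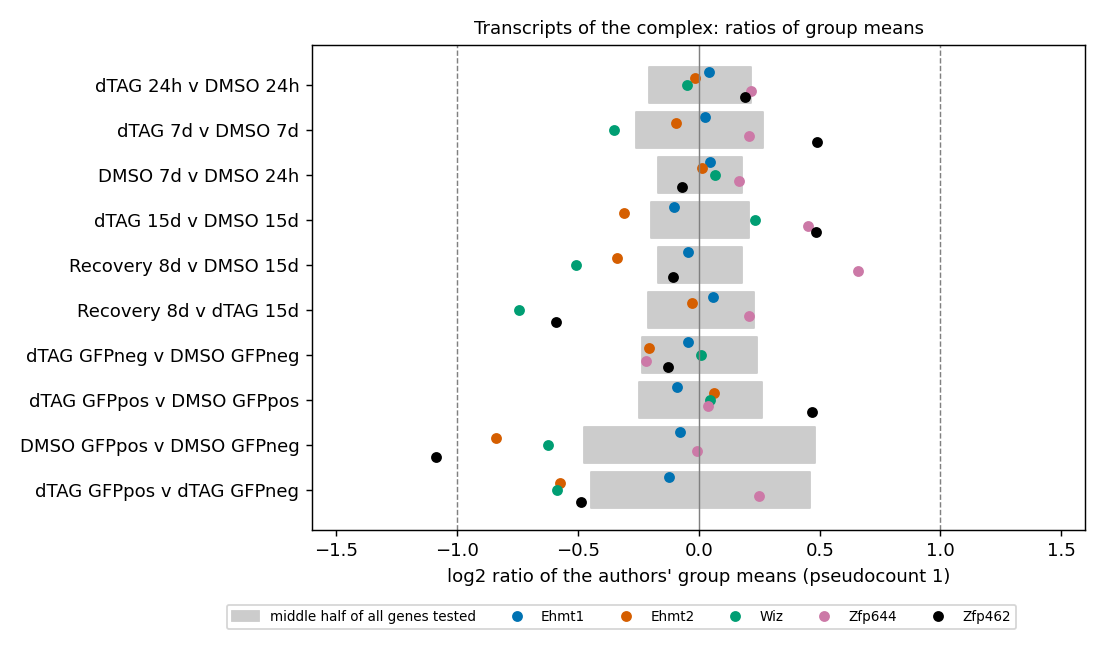
Log2 ratio of the authors' group means (x axis) for the 5 genes in 10 comparisons; grey bars span the interquartile range of all genes tested and dashed lines mark 2-fold. Zfp462 in DMSO GFPpos against DMSO GFPneg, at -1.09, is the only point past a dashed line, and Ehmt1 lies inside every grey bar.

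The Dppa4 experiment was the only one with values for single libraries, and there the catalytic inhibitor could be tested. In WT cells, Zfp462 was at 807.5, 666.7 and 689.7 normalised counts with DMSO and at 1065, 1180 and 1019 with UNC0638. All 3 treated libraries lay above all 3 controls, a separation that 9.86% of the 17258 genes tested had in this direction and 19.9% in either. The fitted ratio was 1.51, with a 95% interval of 0.982 to 2.32. It did not pass (limma with Benjamini-Hochberg adjustment over all genes, adjusted p = 0.566, unadjusted p = 0.0591), and an exact permutation of 3 against 3 libraries cannot go below 0.10. The interval, like those that follow, rests on a spread shared by all 4 groups, KO libraries included. The SD of Zfp462 was 75.5 (DMSO) and 83.0 (UNC0638) in WT cells, and 158.6 and 267.3 in KO cells (n = 3 each).

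Ehmt2 in WT cells was at 499.1, 447.7 and 631.1 with DMSO and at 321.4, 409.2 and 460.7 with UNC0638. The groups overlapped. Within the pairs of same-numbered libraries, which deviated together in WT cells, Ehmt2 was lower with UNC0638 in 3 of 3. So was Wiz, at a ratio of 0.989, so such a count says little about the size of a change. Zfp462 was higher in 3 of 3, which any pairing of its non-overlapping libraries would give. The share of all genes with such counts was not determined. Pairing by replicate number rests on the values and is not given in the labels. The Ehmt2 ratio of 0.755 had an interval of 0.529 to 1.08 (limma adjusted p = 0.589, and 0.387 with the replicate block). Ehmt1 was at 571.3, 541.2 and 386.4 with DMSO and at 387.4, 439.1 and 474.3 with UNC0638, a ratio of 0.878 with an interval of 0.652 to 1.18. Wiz had the tightest libraries of the 5, at 544.5, 557.2 and 544.6 with DMSO and at 537.1, 546.6 and 543.7 with UNC0638, a ratio of 0.989 with an interval of 0.751 to 1.30. Zfp644 was at 140.8, 249.7 and 179.2 with DMSO and at 193.7, 175.7 and 321.0 with UNC0638, with an interval of 0.738 to 1.95 around a ratio of 1.20. For Ehmt1, Wiz and Zfp644 the groups overlapped, and the intervals leave room for ratios on either side of 1. None of the 5 genes was called, and neither was any of the 17258 tested (0%), of which 1504 had an unadjusted p under 0.05. DESeq2 on the recovered reads called 19.

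In Dppa4 KO cells, Zfp462 was at 862.0, 612.4 and 906.5 with DMSO and at 756.1, 692.3 and 264.6 with UNC0638. The low value came from replicate 3, the library that stood apart, and the other 2 treated libraries lay within the range of the controls. The ratio was 0.662, with an interval of 0.431 to 1.02 (limma adjusted p = 0.346), and without that library the log2 difference went from -0.60 to -0.11. Ehmt2 was at 323.9, 460.5 and 553.7 with DMSO and at 310.0, 320.4 and 509.9 with UNC0638, a log2 difference of -0.23 and an interval of the ratio from 0.596 to 1.21. Ehmt1 was at 486.3, 481.9 and 402.8 and at 486.6, 408.5 and 316.1, and its ratio of 0.873 had an interval of 0.649 to 1.18. Wiz was at 738.7, 678.6 and 551.4 and at 757.0, 607.4 and 453.1, so that its replicate 3 was lowest under both treatments. Zfp644 was at 186.9, 141.6 and 279.7 and at 127.8, 229.0 and 109.1. The libraries of the 2 groups overlapped for all 5 genes, where 16.9% of all genes did not overlap, and 0 of 5 were called, against 0.585% of all genes.

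**Figure D4:**
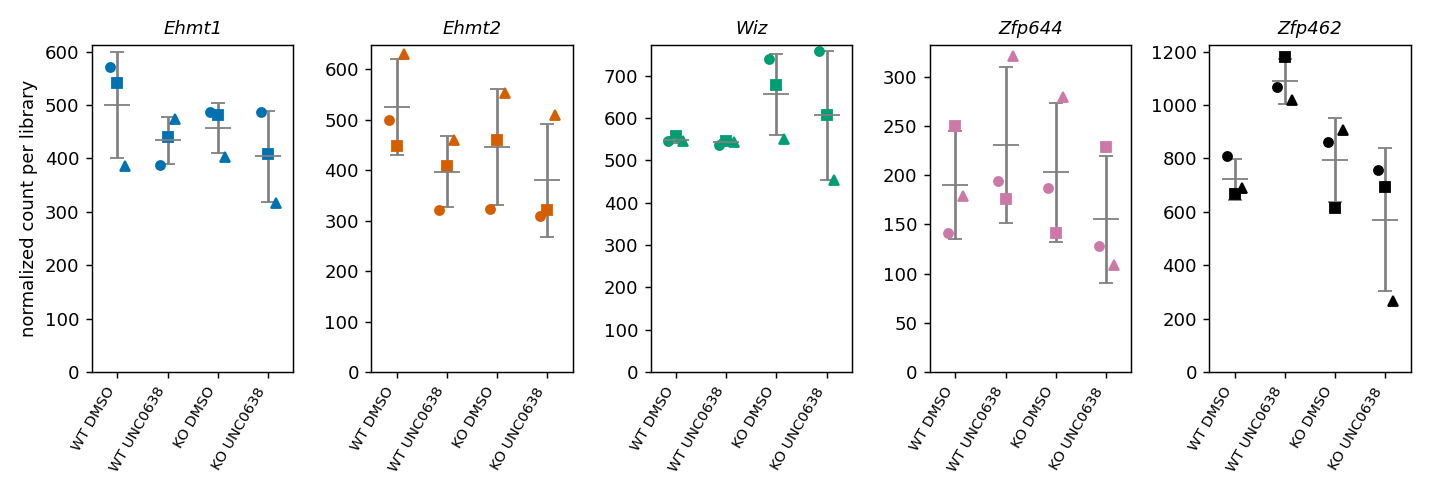
Normalised count per library (y axis, from 0) of the 5 genes in J1 WT and Dppa4 KO cells with DMSO or UNC0638; circles, squares and triangles are replicates 1, 2 and 3, and grey bars are mean ± SD, n = 3. In WT cells the UNC0638 libraries of Zfp462, at 1019 to 1180, lie above its DMSO libraries, and in KO cells 1 UNC0638 library lies at 264.6.

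Loss of DPPA4, a chromatin protein that activates 2C genes, came with no called difference in the 5 transcripts in DMSO. Intervals of the KO-to-WT ratio for Zfp644 (0.649 to 1.71) and Zfp462 (0.708 to 1.67) left room for changes either way. The fitted KO-to-WT ratios ran from 0.837 for Ehmt2 (interval 0.587 to 1.19) to 1.19 for Wiz (interval 0.902 to 1.56), and 0 of 5 were called against 6.63% of all genes. All 5 genes had overlapping libraries in the 2 genotypes, where 29.6% of genes did not overlap. Under UNC0638, 1 of 5 was called, against 4.47% of all genes and 2.71% in the lower direction. This was Zfp462, at 1088 ± 83.0 in WT and 571.0 ± 267.3 in KO (SD, n = 3 each), with a log2 difference of -1.07 ± 0.29 (SE) and a limma adjusted p of 0.0487. Its KO libraries all lay below its WT libraries, as those of 12.6% of genes did, or 24.2% in either direction. The call lay close to the threshold: of 20 alternative fits 6 kept it, with limma, edgeR or DESeq2 adjusted p from 0.0247 to 0.167. The size of the difference turned on KO UNC0638 replicate 3, without which it was -0.59 in log2 units (limma adjusted p = 0.0884). Leaving out any WT library or any KO DMSO library also ended the call, with limma adjusted p from 0.0512 to 0.167, while it held without KO UNC0638 replicate 1 or 2. Zfp644 had a KO-to-WT ratio of 0.665 under UNC0638 with an interval of 0.409 to 1.08, and the other 3 genes lay between 0.920 and 1.09. The summed 2C markers ran from 6.05 to 117.0 CPM in WT DMSO libraries, from 56.5 to 486.5 with UNC0638, and from 0 to 0.315 in KO libraries. Summed fibroblast markers ran from 419.2 to 658.3 CPM in WT and from 344.0 to 424.4 CPM in KO libraries. The part of these lists in the genotype differences was not tested.

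Whether the inhibitor acted differently in the 2 genotypes was asked of each gene directly. Zfp462 had the largest difference of the 5, a KO effect 1.19 log2 units below the WT effect (log2 difference -1.19 ± 0.41 SE), with a limma adjusted p of 0.775 and an unadjusted p of 0.0109. Leaving out KO UNC0638 replicate 3 took it to -0.71. The other 4 lay between -0.66 for Zfp644 and 0.17 for Ehmt2, and 0 of 17258 genes (0%) were called by limma, edgeR or DESeq2, with 1076 at an unadjusted p under 0.05 in limma. The contrasts of this experiment share libraries, so their values are not separate evidence.

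**Figure D5:**
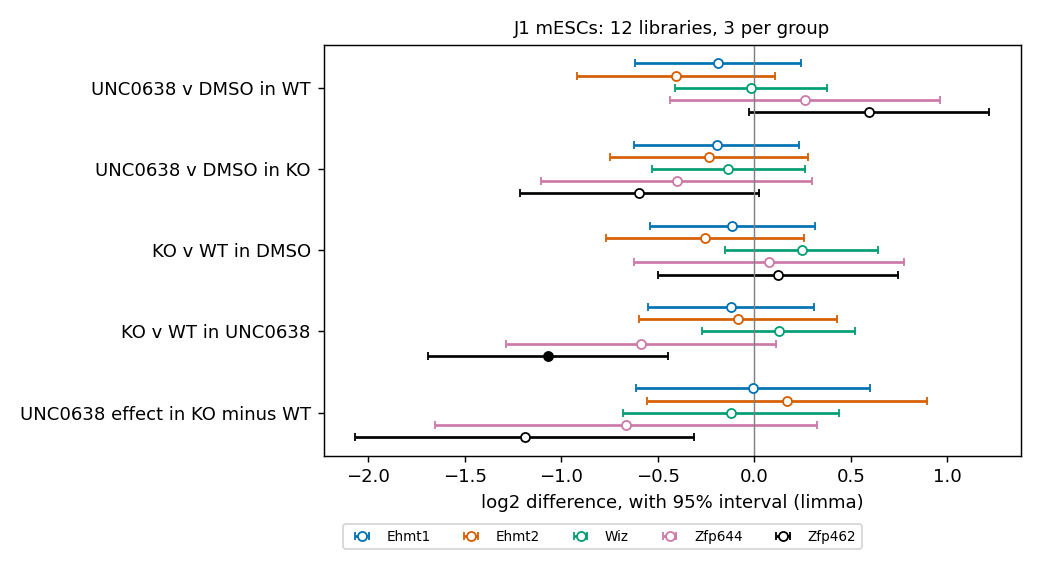
Log2 differences (x axis) with 95% intervals for the 5 genes in the 5 contrasts of the J1 libraries; a filled point has a limma adjusted p under 0.05. The filled point is Zfp462 in KO against WT under UNC0638, at -1.07, and every other interval but that of Zfp462 in the bottom contrast includes 0.

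The rest of the H3K9 methylation machinery was described by a list of 24 genes for other H3K9 methyltransferases, demethylases, readers and corepressors. In the degron experiments, 0 of 24 passed 2-fold in dTAG against DMSO at 24 h, 7 d or 15 d or in either sorted state, and the list's median log2 ratios lay between -0.14 and 0.12, beside -0.02 to 0.01 for all genes. Kdm7a, an H3K9 and H3K27 demethylase gene, was at 574.0 normalised counts after washout, 2.35 times its DMSO level of 243.6 and above its dTAG level of 260.3 by over 2-fold. Rest, which encodes a repressor of neuronal genes that binds corepressor complexes, was at 5468 in GFP-negative cells and 2554 in 2CLCs under DMSO, 2.14-fold lower in 2CLCs. These were the only members of the list past 2-fold in any of the 10 mean comparisons.

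In the J1 libraries, 0 of the 24 were called for UNC0638 in either genotype, where 0% of all genes were called in WT and 0.585% in KO cells. Hdac2, a histone deacetylase gene chosen for mention after its values were seen, came close in KO cells, with a ratio of 2.10, an interval of 1.42 to 3.11 and a limma adjusted p of 0.0707. Between genotypes, Kdm4b, an H3K9 and H3K36 demethylase gene, rose 1.71-fold in KO with DMSO (limma adjusted p = 0.0130) and 1.73-fold with UNC0638 (adjusted p = 0.0137). Cdyl, a gene for a chromodomain reader, fell to 0.627 of WT with DMSO (limma adjusted p = 0.0354), and Cbx5, the gene for heterochromatin protein HP1 alpha, to 0.498 with UNC0638 (adjusted p = 0.0340). In each condition 2 of 24 were thus called, or 8.33%, beside 6.63% of all genes with DMSO and 4.47% with UNC0638, and the list's medians were 0.18 and -0.19 log2 units, beside -0.03 and -0.04 for all genes. Of 20 alternative fits, 19 kept each Kdm4b call, 13 the Cdyl call and 15 the Cbx5 call. Kdm4b was lost with DMSO without WT DMSO replicate 2 (limma adjusted p = 0.0804) and with UNC0638 without WT UNC0638 replicate 2 (limma adjusted p = 0.0828). Cdyl was lost without WT DMSO replicate 2 or 3, WT UNC0638 replicate 2 or any KO DMSO replicate, at limma adjusted p up to 0.140. Cbx5 was lost without any 1 of the 3 WT UNC0638 replicates, at limma adjusted p up to 0.125, and without KO UNC0638 replicate 3 its log2 difference went from -1.01 to -0.59.

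Across the 12 J1 libraries the 5 genes did not vary together. Pearson's r between pairs ran from -0.58 for Ehmt2 and Wiz to 0.56 for Zfp644 and Zfp462, and it was -0.16 for Ehmt1 and Ehmt2. The genes most like Zfp462 over these libraries, among 17257 compared, were Ccdc127, Map1b and Zfp275 (r = 0.958, 0.952 and 0.951). For Wiz they were Tert, Slc36a1 and Cmip (0.947, 0.946 and 0.942), and for Ehmt2 Capn12, Mrps12 and Cdk9 (0.931, 0.925 and 0.905). For Ehmt1 they were Myb, Lss and Tbc1d14 (0.889, 0.880 and 0.860), and for Zfp644 Gm6871, Gm2381 and Ppig (0.948, 0.943 and 0.920). These libraries share groups and clones, and the values only describe likeness.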

How the data were processed

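RNA-seq libraries of mouse embryonic stem cells were sequenced by the study. Per its methods and the labels, the authors trimmed reads with Trim Galore 0.6.7, aligned them to mm10 with STAR 2.7.10 (end-to-end, no introns, multimapping reads placed once at random), counted genes with TEcounts and divided counts by DESeq2 1.34.0 size factors. The deposited signal values are thus normalised counts: per library in the Dppa4 experiment, and 1 mean per group in the other 3 tables, which were normalised separately. Tables of the authors' own fold changes and p-values, and those of repeats, were not used.

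Of the Dppa4 values, 100% gave whole reads within 0.001 of an integer. Genes past edgeR's filterByExpr minimum (17258) were tested on log2(value + 1) with limma 3.58.1 in R 4.3.3, with a group-mean model over all 12 libraries and Benjamini-Hochberg adjustment at 0.05. Fold changes are on that scale and understate changes of low genes. The labels do not tie replicate numbers to clones, so p-values measure the spread between these libraries. Same-numbered DMSO and UNC0638 libraries deviated together in WT cells (r = 0.246, 0.103 and 0.431). In KO cells r was 0.154, -0.0923 and 0.0129, which does not settle whether the numbers pair libraries there. With the replicate number as a block, 0 genes were called for UNC0638 in WT cells. Group means were compared within a table where the mean of the 2 was at least 10, as log2 ratios after adding 1, with no test. edgeR 4.0.16 and DESeq2 1.42.0 on the recovered reads, other scalings, pseudocounts, filters, the block and leaving out each library were alternatives. In data simulated from the J1 means, the fit recovered 25% of 100 genes changed 2-fold in WT UNC0638 and 66% of 100 changed 4-fold. It made 5 false calls. Exon lengths and overlaps came from a GENCODE release on GRCm38 older than the one the authors counted on. The guide came from the study's oligonucleotide list.

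The genes, the H3K9 methylation list and the marker lists (2C, pluripotency, fibroblast, primitive endoderm) were chosen with earlier results of these data known. The text names the 5 genes, list members past a threshold, and the 3 genes with the highest Pearson's r to each of the 5.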

Additional observations from a re-analysis of the deposited data

How the results depend on the processing

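In the Dppa4 experiment the direction of Zfp462 held in every alternative for UNC0638 in WT cells and for KO against WT under UNC0638, where leaving out 1 library gave log2 differences of -1.34 to -0.59. Wiz with UNC0638 in WT cells lay so near 0 that its log2 sign turned with TMM (0.00269), gene-only DESeq2 size factors (0.00117), edgeR (0.00261) and DESeq2 (0.00241), as did the Ehmt1 difference between genotypes with edgeR (0.00646) and DESeq2 (0.00931). Leaving out 1 library gave log2 ranges that crossed 0: for KO against WT under UNC0638, -0.27 to 0.045 (Ehmt1), -0.32 to 0.041 (Ehmt2) and -0.048 to 0.32 (Wiz). For the genotype difference they were -0.15 to 0.17 (Ehmt1), -0.060 to 0.34 (Ehmt2) and -0.30 to 0.074 (Wiz). They were -0.31 to 0.058 for Wiz with UNC0638 in KO cells, -0.18 to 0.31 for Zfp644 in KO against WT with DMSO and -0.00193 to 0.48 for Zfp644 with UNC0638 in WT cells. None of these was called, and the cause was not tested.

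Counts of genes called moved more. UNC0638 in KO cells gave 101 genes, and 12 with no filter, 44 with edgeR, 635 with DESeq2 and 2 to 615 with 1 library left out. UNC0638 in WT cells gave 0, and 19 with DESeq2 and 0 to 1 with 1 library left out, and the genotype difference gave 0, and 0 to 1. KO against WT gave 1145 with DMSO, 1902 with DESeq2 and 319 to 1822 with 1 library left out, and 772, 1433 and 201 to 890 with UNC0638. With the replicate block the counts were 306 for UNC0638 in KO cells, 1996 for KO against WT with DMSO and 1244 with UNC0638, 0 for UNC0638 in WT cells and 0 for the difference. It changed no call among the 5 genes. Whether the replicate numbers pair the KO libraries is not settled. For KO against WT the block tied same-numbered WT and KO libraries, which come from different lines. Their deviations from the group means gave r = 0.0658, -0.0690 and 0.0397 with DMSO, and 0.0627, -0.0864 and 0.124 with UNC0638. The block counts for KO against WT thus rest on a pairing that these values do not bear out. No paired analysis was possible for the other experiments because their tables hold group means.

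There, 0 of the 5 genes changed side of 2-fold under any alternative, and 1 changed sign: Zfp644 in 2CLCs against GFP-negative cells with DMSO went from a log2 ratio of -0.0076 to 0.030 when ratios were centred on the median of all genes. But the counts of all genes past 2-fold followed the minimum mean, which sets how many low genes are compared. With a minimum of 1 and of 50 they were 2316 and 247 for dTAG at 24 h, 3345 and 575 at 7 d, 2283 and 386 at 15 d, and 1259 and 108 for DMSO at 7 d against 24 h (193 with a pseudocount of 5). They were 1197 and 210 for recovery against DMSO, 2786 and 566 against dTAG, 3308 and 370 for dTAG in GFP-negative cells, 3876 and 567 in 2CLCs, 7781 and 2336 for 2CLCs against GFP-negative cells with DMSO, and 7174 and 1993 with dTAG. With 3 libraries a group, the widest 95% interval among the 5 genes for UNC0638 in WT cells ran from 0.738 to 1.95 (Zfp644).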

Other observations

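After the values were seen, replicate 3 was noted as the library with the highest Ehmt2-to-Ehmt1 ratio per kb of exon in all 4 groups of the Dppa4 experiment: 2.42 in WT DMSO, 1.44 in WT UNC0638, 2.03 in KO DMSO and 2.39 in KO UNC0638. Replicates have no order, and what the number marks is not given in the labels.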
